A study of Mus musculus with 8 samples.

Results

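To describe bone morphogenetic protein (BMP) signalling genes in hearts with reduced Isl1, 10 genes were examined: the ligands Bmp2, Bmp4, Bmp5, Bmp7 and Bmp10, the extracellular modulator Bmper, the intracellular inhibitor Smad6, and the response genes Msx1, Msx2 and Id1. They were taken by symbol from the 20701 gene symbols of the table, and the transcript with the highest mean count was kept for each gene. RNA was sequenced from the outflow tract and right ventricle (OFT/RV), dissected together from single C57BL/6 mouse embryos at E10.5. Control embryos (CTRL, 4 libraries) were labelled wild type, and the other 4 embryos carried the Isl1 hypomorph genotype (Isl1_hypo), which the study describes as homozygous for an Isl1 f;neo allele. As a germline allele it is present in every cell of the embryo and lowers Isl1 without removing it. RNA came from whole dissected tissue, so the libraries do not separate cells that express Isl1 from their neighbours. The labels name no treatment and 1 embryonic stage.

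BMPs are secreted proteins of the TGF-beta superfamily. They bind pairs of type I and type II receptors, which phosphorylate SMAD1, SMAD5 and SMAD9, and these enter the nucleus with SMAD4 and activate genes of the Id and Msx families and the inhibitors Smad6 and Smad7. In the embryonic heart, Bmp4 is expressed in outflow tract myocardium and second heart field cells and is required for septation of the outflow tract, Bmp2 acts in cushion formation of the atrioventricular canal, and Bmp10 is produced by trabecular myocardium. Isl1 is a LIM-homeodomain transcription factor of second heart field progenitors, from which the outflow tract and right ventricle arise.

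Sequences upstream of the response genes are shown because Id1 and Smad6 are textbook direct targets of BMP-activated SMADs. The element searched was first described on such targets, Id1 among them, so its presence there is a description and not a result about the 10 genes. The letters of a BMP response element, GNCGNC followed after 5 bases of any kind by GTCT (N is any base), were searched on both strands in the 2000 bases before each gene start of mm9 (GENCODE vM1). They were present in 2 of the 10 genes, Id1 and Smad6, and in 351 of 22380 genes in the same window (1.57%). In Id1 the match began 1045 bases before the start and in Smad6 it began 15 bases before the start. In the Id1 sequence (mm9, plus strand, chr2:152560872-152560971), capitals mark this match and the upstream GGCGCC, a GC-rich letter string bound by SMAD1 and SMAD5, which 20.3% of all windows hold. In the Smad6 sequence (mm9, minus strand, chr9:63869867-63869926), which ends at the base before the gene start, capitals mark the match.
Id1: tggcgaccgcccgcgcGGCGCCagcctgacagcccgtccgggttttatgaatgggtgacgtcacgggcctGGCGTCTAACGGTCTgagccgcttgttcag
Smad6: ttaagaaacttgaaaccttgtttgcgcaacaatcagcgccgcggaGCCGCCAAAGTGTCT

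For Bmp4 and Msx2, the ligand and the response gene with the most negative fold changes among those described, the 250 bases before the start were taken from RefSeq (GRCm38.p6), whose table matched 7 of the 10 genes and not Bmp2, Bmp7 or Id1. These windows were searched on both strands for GGCGCC (in 9.59% of all promoters of this length), CAGAC (42.2%), the Isl1 motif letters CTAATG (6.36%) and the homeodomain core TAATTA (4.84%), none of which overlaps another in these windows. The Bmp4 promoter (minus strand, chr14:46390670-46390919) held none of these letters. The Msx2 promoter (minus strand, chr13:53472781-53473030) held TAATTA once, 187 bases before the start, shown in capitals. These matches describe letters in a window, and binding was not measured in these libraries.
Bmp4: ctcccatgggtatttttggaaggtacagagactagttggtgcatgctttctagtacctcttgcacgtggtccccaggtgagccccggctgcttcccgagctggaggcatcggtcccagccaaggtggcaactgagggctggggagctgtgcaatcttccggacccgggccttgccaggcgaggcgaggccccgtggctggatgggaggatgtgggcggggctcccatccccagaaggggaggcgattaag
Msx2: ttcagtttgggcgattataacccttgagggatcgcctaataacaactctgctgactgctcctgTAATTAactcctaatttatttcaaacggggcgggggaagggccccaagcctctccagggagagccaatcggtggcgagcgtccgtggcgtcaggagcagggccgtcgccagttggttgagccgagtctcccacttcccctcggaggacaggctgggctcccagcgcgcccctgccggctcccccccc

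The libraries held 18422245 to 46678973 counts over all genes, and the tissue label was checked with 6 ventricular myocardium markers, which were present in every library at a summed level of 35800 to 47000 CPM. CPM values are counts scaled to library depth with edgeR, so that libraries can be compared for a gene, but not genes of different length. For Isl1 itself the CTRL libraries gave 29.6, 61.5, 46.2 and 51.3 CPM (replicates 1 to 4) and the Isl1_hypo libraries 12.7, 6.86, 7.71 and 11.4 CPM, so that every Isl1_hypo library lay below every CTRL library (log2 fold change −2.29, SE 0.256, adjusted p = 0.0077). The call was lost with the replicate number as a block (log2 fold change −2.29, adjusted p = 0.0722) and with globin expression as a covariate (−2.28, adjusted p = 0.381). Adjusted p-values are from the edgeR quasi-likelihood test with Benjamini-Hochberg adjustment over all 13769 genes tested. Isl1_hypo replicate 3 stood apart from the other 7 libraries on the first principal component (72, against −17.7 to 4), and values without it are given where they bear on a result. Globin transcripts, a measure of blood, took 0.212 to 1.19% of CTRL counts and 1.18 to 2.44% of Isl1_hypo counts. Y-linked genes were expressed in CTRL replicate 3 and in Isl1_hypo replicates 1, 3 and 4.

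All 10 genes passed the filter on low counts. Bmp4 fell in Isl1_hypo, and it was the only 1 of the 10 genes with an adjusted p under 0.05, where 0.123% of all tested genes fell and 0.269% changed in either direction. At an unadjusted p under 0.05, 3 of the 10 genes were lower in Isl1_hypo, Bmp4, Smad6 and Msx2, and none was higher, where 6.17% of all genes were lower and 5.69% higher. The same 3 genes were those whose groups did not overlap, all with lower Isl1_hypo values, where 8.5% of all genes did not overlap, 4.44% lower and 4.06% higher. The fold change was negative in 8 of the 10 genes, against 49.1% of all genes, and the median log2 fold change was −0.34, against 0.01 over all genes. With globin expression as a covariate, Bmp2 was at −0.03, Bmp7 at −0.02, Msx1 at −0.23 and Id1 at −0.19, all nearer 0. Bmper moved the other way, to −0.37. Smad6 and Msx2 are named by the study as Isl1 targets in outflow tract development with these libraries in view, so their presence among the 10 is not independent of the data. In bulk tissue, fewer cells that express a gene and less RNA per cell cannot be told apart. The plot of CPM by embryo shows the 10 genes in all 8 libraries.

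**Figure D1:**
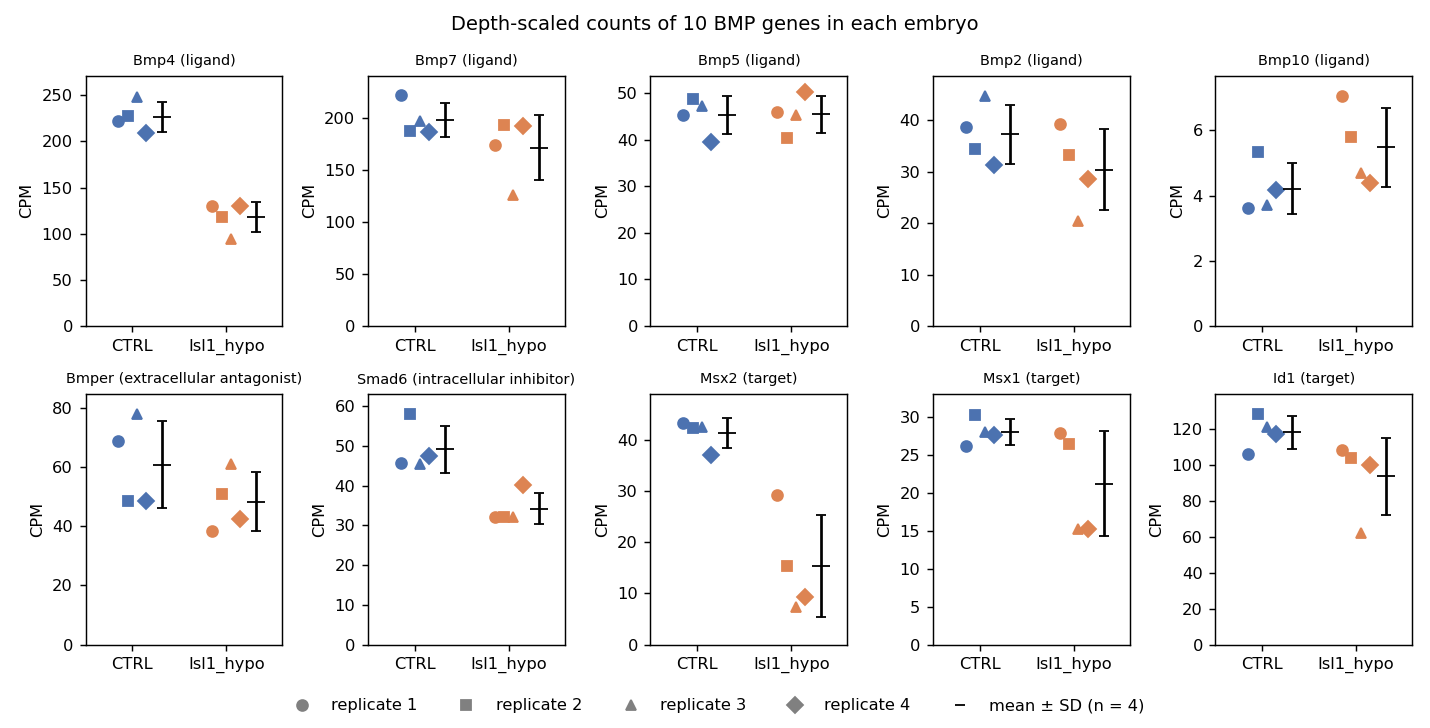
CPM (vertical axis, from 0) of the 10 BMP genes in 4 CTRL (blue) and 4 Isl1_hypo (orange) embryos, 1 panel per gene, with marker shape giving the replicate and the bar giving mean ± SD (n = 4). The groups do not overlap for Bmp4, Smad6 and Msx2, and Isl1_hypo replicate 3 is the lowest library for Bmp4, Bmp7, Bmp2, Msx2 and Id1.

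Bmp4 (RefSeq transcript NM_007554) is a protein-coding gene of chromosome 14 (mm9, minus strand, 47003195 to 47010344). Its level was 222, 228, 248 and 209 CPM in CTRL (replicates 1 to 4), compared with 130, 118, 94.4 and 130 CPM in Isl1_hypo. Every Isl1_hypo embryo was below the lowest CTRL embryo by more than the spread within either group. Mean expression was 227 ± 16.4 CPM in CTRL and 118 ± 16.8 CPM in Isl1_hypo (SD, n = 4), a level of 52.1%. On the log2 scale Bmp4 fell by 0.94 (SE 0.12, adjusted p = 0.0172, edgeR quasi-likelihood test), and 3 of the 13769 genes had a lower p, while 371 had a more negative fold change. In an exact 2-sided permutation test on log2 CPM, p was 0.0286, which is as low as 4 against 4 libraries can reach. The values rest on 2400 to 9995 exon counts per library.

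Both RefSeq transcripts of Bmp4 gave a fold change (log2) of −0.93 (adjusted p = 0.0215) in an edgeR quasi-likelihood fit of all 22790 transcripts tested. Reads were counted on both strands, and 89 of the 2224 exonic bases of Bmp4 also belong to Gm15217 on the plus strand, whose reads would be counted with it. Without Isl1_hypo replicate 3 the log2 fold change was −0.85 (adjusted p = 0.00342). The adjusted p of Bmp4 rose to 0.0626 without CTRL replicate 2 and to 0.0733 without CTRL replicate 3, with log2 fold changes of −0.94 and −0.90. With the replicate number as a block the log2 fold change was −0.95 (adjusted p = 0.0763). With globin expression added as a covariate it was −0.80 (adjusted p = 0.857), and with the level of Y-linked genes it was −0.99 (adjusted p = 0.0754). Globin shares were mostly higher and Y-linked expression was more frequent in Isl1_hypo, and either term leaves 1 residual degree of freedom fewer. The part of blood and of sex in the Bmp4 values was not tested further.

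Bmp7 (mm9, chr2:172693513-172765822, minus strand), a broadly expressed BMP of the heart, was at 222, 187, 197 and 186 CPM in CTRL and at 174, 193, 126 and 192 CPM in Isl1_hypo. The groups overlapped, with Isl1_hypo replicate 3 lowest and Isl1_hypo replicate 1 also below the CTRL range. The log2 fold change was −0.21 (SE 0.137, adjusted p = 0.567), and −0.09 without Isl1_hypo replicate 3. Bmp2 (mm9, chr2:133377895-133388621, plus strand) was at 38.7, 34.5, 44.7 and 31.4 CPM in CTRL and at 39.2, 33.2, 20.5 and 28.6 CPM in Isl1_hypo. Again the groups overlapped with Isl1_hypo replicate 3 lowest, and the log2 fold change was −0.30 (SE 0.194, adjusted p = 0.564), or −0.15 without that library.

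Bmp5 (mm9, chr9:75623171-75748117, plus strand), which is closely related to Bmp7, ranged from 39.5 to 48.8 CPM in CTRL and from 40.4 to 50.2 CPM in Isl1_hypo, with a fold change (log2) of 0.01 (SE 0.121, adjusted p = 0.988). Of its 4025 exonic bases, 1878 overlap the antisense gene Gm16662, and reads of the pair cannot be told apart with counting on both strands. Bmp10 (mm9, chr6:87378996-87384506, plus strand), the trabecular ligand, was at 3.62, 5.34, 3.72 and 4.17 CPM in CTRL and at 7.06, 5.81, 4.68 and 4.39 CPM in Isl1_hypo. Its Isl1_hypo values were in part higher, with a fold change (log2) of 0.38 (SE 0.256, adjusted p = 0.579), and it rested on 113 to 217 counts per library. Without Isl1_hypo replicate 1, the highest library, the value was 0.23. Besides Bmp10, the trabecular marker list (Nppa, Nppb, Gja5 and Irx3) had positive fold changes in 4 of 4 genes, where 49.1% of all genes were negative, and a summed level of 344 to 480 CPM in CTRL against 636 to 960 CPM in Isl1_hypo. Nppa, at 313 ± 59.5 CPM in CTRL and 686 ± 133 CPM in Isl1_hypo, carried most of that difference, and the fold changes (log2) of Gja5 (0.24, unadjusted p = 0.216) and Irx3 (0.36, unadjusted p = 0.106) passed no threshold. That of Nppb was 0.51 (unadjusted p = 0.0196, adjusted p = 0.314), with overlapping groups. Nppa rose (log2 fold change 1.13, adjusted p = 0.0303), although its adjusted p was 0.0547 to 0.104 without any 1 library other than Isl1_hypo replicate 3, and 0.051 with the replicate block, 0.381 with globin and 0.0981 with Y-linked expression as a covariate. The part of that tissue in the Bmp10 values was not tested.

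Levels of different ligands were compared on the authors' length-scaled values (RPKM, counts per kilobase of transcript, scaled to the total over all transcripts). In CTRL the order was Bmp4 (67.7 ± 4.44 RPKM), Bmp7 (33.2 ± 3.23), Bmp5 (7.27 ± 0.65), Bmp2 (6.43 ± 0.967) and Bmp10 (1.95 ± 0.362), each a mean ± SD with n = 4. The ranges of Bmp5 and Bmp2 overlapped, whereas the other neighbours in this order were separate in every CTRL embryo. In Isl1_hypo the order was the same, with Bmp4 at 34.7 ± 5.42 RPKM and Bmp7 at 28.2 ± 5.46 RPKM, and the ranges of Bmp4 and Bmp7 now overlapped (27 to 38.8 and 20.3 to 31.9 RPKM), although Bmp4 was above Bmp7 within each embryo. Over 13 BMP and GDF ligands the summed level was 120 ± 6.66 RPKM in CTRL and 81.2 ± 11.9 RPKM in Isl1_hypo.

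The share of Bmp4 in this sum was 54.8%, 57%, 58.1% and 56.2% in CTRL and 43.9%, 41.1%, 42.5% and 43.4% in Isl1_hypo, and these ranges did not overlap. The share of Bmp7 was 27.7 ± 2.21% in CTRL and 34.6 ± 2.68% in Isl1_hypo, that of Bmp5 was 6.07 ± 0.357% and 8.97 ± 1.46%, and that of Bmp10 was 1.64 ± 0.34% and 3.1 ± 0.594% (SD, n = 4). Shares sum to a fixed total, so those of the other ligands move when Bmp4 does. The ratio of Bmp4 to Bmp7 was 1.78 to 2.25 in CTRL and 1.09 to 1.34 in Isl1_hypo. Ratios within a library do not depend on its scaling, and that of Bmp4 to each of the other 4 ligands was lower in every Isl1_hypo embryo than in any CTRL embryo.

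**Figure D2:**
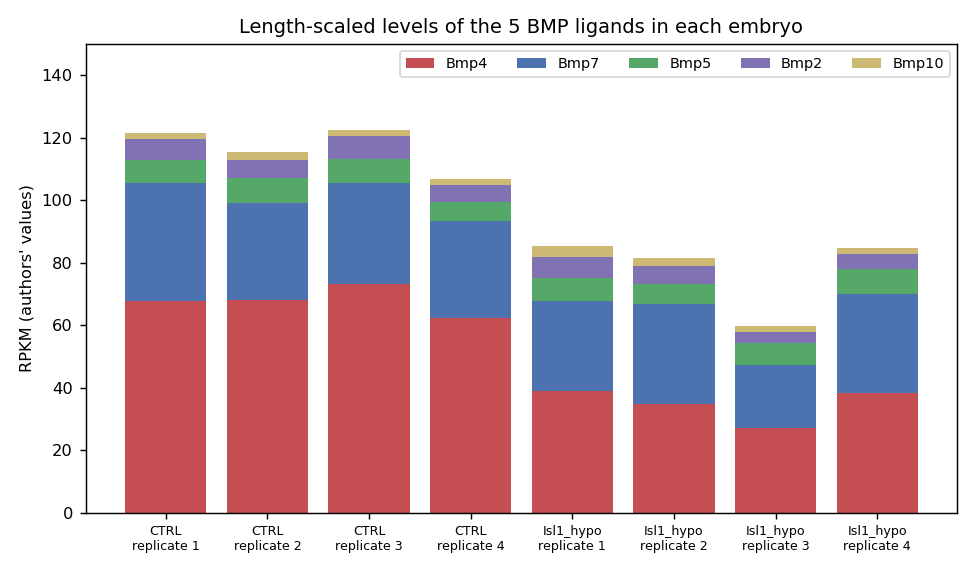
Stacked RPKM of Bmp4, Bmp7, Bmp5, Bmp2 and Bmp10 (vertical axis, from 0) in each of the 8 embryos. The Bmp4 segment is 62.2 to 73.1 RPKM in CTRL and 27 to 38.8 RPKM in Isl1_hypo, and the whole bar is 107 to 122 RPKM in CTRL and 59.7 to 85.1 RPKM in Isl1_hypo.

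Bmper (mm9, chr9:23027520-23289646, plus strand), an extracellular BMP-binding protein that can inhibit or promote signalling, was at 68.8, 48.6, 78 and 48.5 CPM in CTRL and at 38.6, 50.9, 61.2 and 42.6 CPM in Isl1_hypo. The groups overlapped, and the log2 fold change was −0.33 (SE 0.192, adjusted p = 0.519), or −0.20 without CTRL replicate 3, the highest library. Smad6 (mm9, chr9:63800953-63869866, minus strand), which blocks the type I receptors and SMAD1 inside the cell and is itself induced by BMP, was at 45.7, 58, 45.4 and 47.4 CPM in CTRL and at 32.2, 32.2, 32.2 and 40.2 CPM in Isl1_hypo. The groups did not overlap, with means of 49.1 ± 5.98 and 34.2 ± 4.01 CPM (SD, n = 4), the second being 69.6% of the first. The log2 fold change was −0.52 (SE 0.134, unadjusted p = 0.0023, adjusted p = 0.173, edgeR quasi-likelihood test), so it did not pass the adjusted threshold. DESeq2 gave Smad6 an adjusted p of 0.0211 at the same log2 fold change. Of the 10 genes, Smad6 holds the BMP response letters, printed above, nearest the gene start. Outside the 10, Id3 holds them 182 bases before its start and had a log2 fold change of −0.17 (adjusted p = 0.517). A link of these letters to the levels was not tested.

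Msx2 (mm9, chr13:53562250-53568443, minus strand), a homeobox gene that responds to BMP in cushion and neural crest mesenchyme, had the most negative fold change of the 10 genes. It was at 43.4, 42.3, 42.5 and 37 CPM in CTRL and at 29.3, 15.4, 7.24 and 9.2 CPM in Isl1_hypo. The CTRL embryos were close together, and the Isl1_hypo embryos, all lower, differed widely among themselves. The mean was 41.3 ± 2.95 CPM in CTRL and 15.3 ± 9.98 CPM in Isl1_hypo (SD, n = 4), or 37% of CTRL. The log2 fold change was −1.44 (SE 0.351, unadjusted p = 0.00159, adjusted p = 0.148, edgeR quasi-likelihood test). Without Isl1_hypo replicate 1, the highest of its group, the log2 fold change was −1.96 and the adjusted p 0.016. DESeq2 and limma-voom gave adjusted p-values of 0.00206 and 0.0201 on all 8 libraries.

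Msx1 (mm9, chr5:38211724-38215822, minus strand), the paralogue of Msx2, was at 26.2, 30.3, 28 and 27.6 CPM in CTRL and at 27.9, 26.4, 15.2 and 15.2 CPM in Isl1_hypo. Isl1_hypo replicates 1 and 2 lay within the CTRL range and replicates 3 and 4 well below it, and the log2 fold change was −0.41 (SE 0.209, adjusted p = 0.475). Msx2 was likewise lower in Isl1_hypo replicates 3 and 4 than in replicates 1 and 2. Id1 (mm9, chr2:152561987-152563146, plus strand), an inhibitor of basic helix-loop-helix factors and a widely used BMP readout, was at 106, 128, 121 and 117 CPM in CTRL and at 108, 104, 62.1 and 100 CPM in Isl1_hypo. The groups overlapped through CTRL replicate 1 and Isl1_hypo replicate 1, and the log2 fold change was −0.34 (SE 0.16, unadjusted p = 0.0577, adjusted p = 0.44). Without Isl1_hypo replicate 3 it was −0.18.

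The levels of the response genes were also set beside that of the ligand within each library. The RPKM ratio of Bmp4 to Id1 was 0.806 to 0.95 in CTRL and 0.515 to 0.689 in Isl1_hypo, without overlap. The ratio of Bmp4 to Smad6 was 5.67 to 7.89 in CTRL and 4.23 to 5.85 in Isl1_hypo, with a small overlap, and the ratio to Msx2 was 5.38 to 6.14 in CTRL and 4.67 to 14.8 in Isl1_hypo. The ratio to Msx1 was 7.06 to 8.31 in CTRL and 4.21 to 8 in Isl1_hypo, where 1 library lay within the CTRL range. Bmp4 was thus lower relative to Id1 in each Isl1_hypo embryo, whereas relative to Msx2 it was higher in 3 of the 4. These ratios are descriptions, with no test.

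The other genes of the pathway were taken from a list by role. Of 54 listed genes outside the 10, 42 passed the filter on low counts. Bmpr1b and Hfe2 rose (edgeR quasi-likelihood test, adjusted p under 0.05), where 0.145% of all genes rose, and no gene of the list fell by this test or by DESeq2 or limma-voom. At an unadjusted p under 0.05, 5 were lower and 5 higher, where 6.17% and 5.69% of all genes were, and the median log2 fold change of the 42 was −0.02. Cer1 was at 0 in all libraries.

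Among 11 receptors and co-receptors, Bmpr1b (mm9, chr3:141500100-141832389, minus strand), a type I receptor, was at 0.928, 1.16, 0.149 and 0.812 CPM in CTRL and at 4.83, 8.69, 4.99 and 9.65 CPM in Isl1_hypo. The groups were far apart at low levels, with 6 to 47 counts in the CTRL libraries and 89 to 279 in the Isl1_hypo libraries, and the log2 fold change was 3.21 (SE 0.52, adjusted p = 0.0342). Hfe2 (mm9, chr3:96329108-96333139, plus strand), which encodes the BMP co-receptor hemojuvelin, was at 2.24, 2.51, 1.74 and 3.93 CPM in CTRL and at 8.64, 8.02, 8.63 and 9.31 CPM in Isl1_hypo (log2 fold change 1.73, SE 0.275, adjusted p = 0.0342). Both calls depended on single libraries, since leaving out 1 library moved the adjusted p to between 0.0325 and 0.123 for Bmpr1b and between 0.0221 and 0.119 for Hfe2, at log2 fold changes of 2.86 to 3.49 and 1.57 to 2. Neither gene passed with the globin covariate (3.64, adjusted p = 0.863, and 1.34, adjusted p = 1) or the Y-linked covariate (4.19, adjusted p = 0.0513, and 1.93, adjusted p = 0.157), nor with the replicate block (adjusted p = 0.075 and 0.0961). Each of CTRL replicates 1, 2 and 3 and Isl1_hypo replicates 2 and 4 was needed for both calls, CTRL replicate 4 for that of Bmpr1b and Isl1_hypo replicate 1 for that of Hfe2. Acvrl1, an endothelial type I receptor, had a fold change (log2) of −0.86 (SE 0.372, unadjusted p = 0.0406, adjusted p = 0.395), or −0.57 without Isl1_hypo replicate 3, and Rgma, a co-receptor, −0.62 (adjusted p = 0.67).

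Among the 4 signal transducers none passed the adjusted threshold. Smad5 was at 102 ± 2.38 CPM in CTRL and 97.4 ± 9.56 CPM in Isl1_hypo (SD, n = 4). Smad9 had a fold change (log2) of −0.56 (unadjusted p = 0.044, adjusted p = 0.403), or −0.21 with the globin covariate, Smad1 −0.20 (adjusted p = 0.658) and the common partner Smad4 0.07 (adjusted p = 0.897). Of the intracellular inhibitors, Smad7 was at 22.8, 20, 15.2 and 19 CPM in CTRL and at 27.4, 25.5, 20.8 and 25 CPM in Isl1_hypo, with overlapping groups and a fold change (log2) of 0.36 (SE 0.157, unadjusted p = 0.0423, adjusted p = 0.4), or 0.56 with the globin covariate. Its value was thus positive where that of Smad6 was negative, and neither passed the adjusted threshold. Bambi, a pseudoreceptor that is also a BMP-induced gene, was at 339 ± 18.9 and 326 ± 45.8 CPM (log2 fold change −0.06, adjusted p = 0.878), and the ubiquitin ligases Smurf1 and Smurf2 were at −0.28 and 0.22.

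Of 19 extracellular antagonists and modulators, 13 were tested and 8 had negative fold changes, 1 of them at 0.00 (Chrdl1), where 49.1% of all genes were negative. Bmp1, the protease that cleaves the antagonist Chordin, was at 60.2, 35.1, 41.5 and 37.3 CPM in CTRL and at 33.6, 30.7, 16.8 and 21.7 CPM in Isl1_hypo. The groups did not overlap, although the gap between them was small, and the log2 fold change was −0.76 (SE 0.236, unadjusted p = 0.0077, adjusted p = 0.254), or −0.39 with the globin covariate. Chrd, the gene of Chordin, held 20 to 63 counts in the CTRL libraries and 10, 0, 0 and 5 counts in the Isl1_hypo libraries (unadjusted p = 0.0321, adjusted p = 0.364), and its fold change is not given because these counts are low. Twsg1, a Chordin partner, had a fold change (log2) of 0.25 (adjusted p = 0.402) and Nbl1, a secreted antagonist, 0.50 (adjusted p = 0.473). Among the less abundant ligands, Gdf2, a circulating BMP that acts on endothelium, held 23, 0, 10 and 4 counts in CTRL and 18, 11, 105 and 2 counts in Isl1_hypo (unadjusted p = 0.0922, adjusted p = 0.498). These counts are low and Isl1_hypo replicate 3 holds most of them, so no fold change is given. Bmp6 was at 6.93 ± 1.83 CPM in CTRL and 5.91 ± 1.13 CPM in Isl1_hypo, and Gdf6 at 8.63 ± 5.61 and 11.2 ± 0.734 CPM, both with overlapping groups.

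Further BMP-responsive genes went both ways. Tbx20, a cardiac T-box gene, was at 580, 468, 422 and 416 CPM in CTRL and at 404, 383, 283 and 324 CPM in Isl1_hypo (log2 fold change −0.44, SE 0.143, unadjusted p = 0.0105, adjusted p = 0.283). Id2, a family member of Id1, was at 413, 432, 398 and 443 CPM in CTRL and at 512, 453, 555 and 497 CPM in Isl1_hypo (log2 fold change 0.26, SE 0.0961, unadjusted p = 0.0202, adjusted p = 0.316). Neither gene had overlapping groups, with Tbx20 lower and Id2 higher in Isl1_hypo, where 8.5% of all genes did not overlap, and neither passed the adjusted threshold. With the globin covariate the value was −0.13 for Tbx20 and 0.18 for Id2. Id3 was at 388 ± 23.9 CPM in CTRL and 345 ± 27.5 CPM in Isl1_hypo (log2 fold change −0.17, adjusted p = 0.517), and Tbx2 had a fold change (log2) of −0.28 (adjusted p = 0.687). The 3 Id genes with high levels thus had fold changes of −0.34 (Id1), 0.26 (Id2) and −0.17 (Id3) on the log2 scale.

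**Figure D3:**
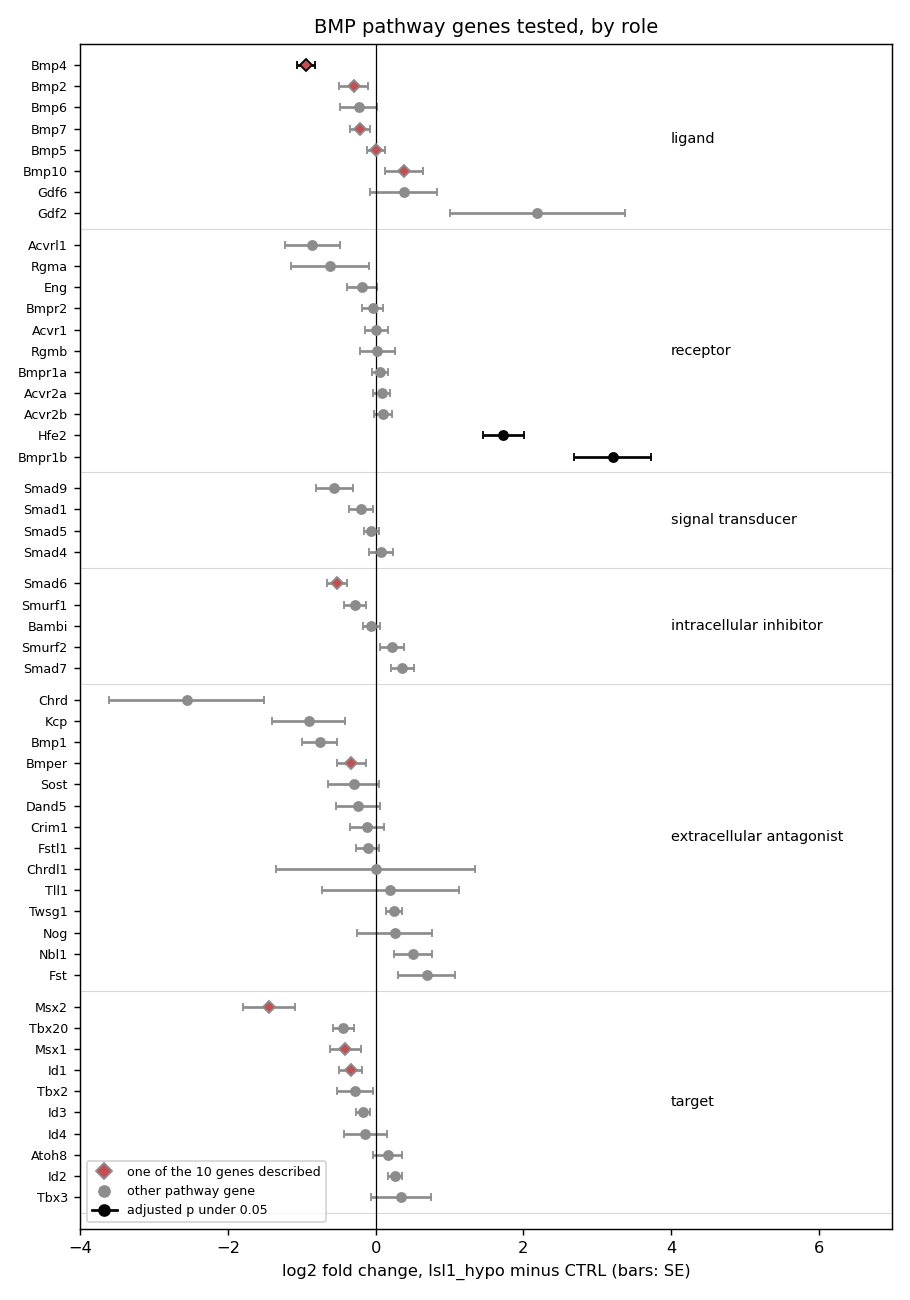
Log2 fold change (Isl1_hypo minus CTRL, horizontal axis, bars are SE) of the 10 genes (diamonds) and the 42 other tested BMP pathway genes (circles), ordered by role, with black outlines and bars for an adjusted p under 0.05. Bmp4 at −0.94, Hfe2 at 1.73 and Bmpr1b at 3.21 are the genes past the threshold, and the widest bars belong to genes with few counts.

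Genes whose pattern over the 8 libraries was most like that of Bmp4 were sought among 10735 tested genes with a mean of at least 5 CPM, by the root mean square difference of log2 CPM after centring each gene on its own mean. The median difference over all candidates was 0.54. The nearest was Fgfrl1 (difference 0.0943), which encodes a receptor that binds FGF and lacks a kinase domain. Fgfrl1 (mm9, chr5:109123248-109135969, plus strand) was at 59.2, 56.1, 53.5 and 52.3 CPM in CTRL and at 32.3, 30.8, 24.9 and 30.5 CPM in Isl1_hypo (log2 fold change −0.90, SE 0.123, adjusted p = 0.0172). Its adjusted p was 0.0763 with the replicate block, 0.863 with the globin covariate and 0.137 with the Y-linked covariate. As for Bmp4, Isl1_hypo replicate 3 was the lowest library, and the mean was 53.6% of CTRL. Its adjusted p was 0.0534 to 0.0733 without CTRL replicate 1, 2 or 3 or Isl1_hypo replicate 2 or 4. Lrrc3 (0.151), Cacna1d (0.157), Pde4a (0.167) and Prss57 (0.174) followed, with log2 fold changes of −0.83 to −0.89 on the same scale and adjusted p-values of 0.0597 to 0.133. Of the other 9 genes described here, Smad6 (0.277) and Id1 (0.321) were nearest to Bmp4 and Bmp10 (0.706) was farthest. Fgfrl1, Lrrc3, Cacna1d, Pde4a and Prss57 were picked for likeness to Bmp4 over the same 8 libraries. Their library order, fold changes and adjusted p-values follow from that choice and give no separate support. The libraries are shared by all genes, and the measure is a description.

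Markers of cell types that the dissection could hold were examined beside these values. Second heart field markers were negative in 6 of 6 genes, where 49.1% of all genes were, with a summed level of 34.7 to 40.8 CPM in CTRL and 18.2 to 20.3 CPM in Isl1_hypo. Among them Fgf10, at 25.5 CPM in CTRL and 13.4 CPM in Isl1_hypo, fell by 0.93 on the log2 scale (adjusted p = 0.031, edgeR quasi-likelihood test), close to the fold change of Bmp4. The call of Fgf10 was lost without any 1 library other than Isl1_hypo replicate 3 (adjusted p = 0.0532 to 0.105), with the replicate block (0.106) and with the globin (0.653) or Y-linked (0.158) covariate. Nkx2-6 had a fold change (log2) of −1.44 (adjusted p = 0.0643). Cushion mesenchyme markers, from cells in which Msx genes respond to BMP, were negative in 7 of 7 genes, against 49.1% of all genes, with none at an adjusted p under 0.05 and 4 at an unadjusted p under 0.05, where 6.17% of all genes were lower. Their summed level was 1690 to 2720 CPM in CTRL and 1170 to 1770 CPM in Isl1_hypo, with overlap. The highest sum was that of CTRL replicate 1, where Postn was at 642 CPM, against 187 to 283 CPM in the other CTRL libraries. The groups did not overlap for 1 of the 7 genes, where 8.5% of all genes did not. The part of these cell types in the values of Bmp4 and Msx2 was not tested.

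Other lists were higher in Isl1_hypo or overlapped between the groups. Epicardium markers were positive in 5 of 5 genes (summed level 51.6 to 304 CPM in CTRL, 379 to 665 CPM in Isl1_hypo), as were erythroid markers in 7 of 7 (1910 to 11200 and 11200 to 23200 CPM) and the 3 tested epithelium markers (whole list 67.9 to 115 and 124 to 303 CPM, with Shh at 0). Krt8 and Krt18 made up most of the epithelium sum, whereas Cldn6, Cdh1, Epcam and Esrp1 stood out in Isl1_hypo replicate 1, at 38.5, 15.3, 9.83 and 6.03 CPM, and each was at most 1.87 CPM in the other 7 libraries. This is also the library with the highest Msx2 level of its group, without which the adjusted p of Msx2 was 0.016, and the part of these transcripts in the Msx2 values was not tested. The ventricular myocardium list overlapped between groups (35800 to 43400 and 38800 to 47000 CPM), as did endothelium and endocardium (733 to 864 and 612 to 791 CPM), neural crest (118 to 149 and 135 to 212 CPM), macrophages (7.26 to 15.3 and 3.32 to 11.9 CPM) and neurons (53.8 to 78.8 and 33.8 to 56.2 CPM). Within the first 2 of these lists, single genes were lower without overlap, where 4.44% of all genes were. Myh7 had a log2 fold change of −0.49 (adjusted p = 0.165), in a list with 2 negative and 4 positive genes. Pecam1 (−0.58, adjusted p = 0.17) and Cdh5 (−0.54, adjusted p = 0.241) belong to the endothelium list, with 5 negative and 3 positive genes. The atrium list was 21.6 to 28.6 CPM in CTRL and 31.4 to 47.5 CPM in Isl1_hypo, with 2 genes of each sign. Within it Sln, which encodes a calcium pump inhibitor of atrial myocardium, fell by 2.28 on the log2 scale (SE 0.313, adjusted p = 0.0172), against the direction of the sum, at 6.85, 4.11, 6.16 and 6.31 CPM in CTRL and 1.14, 1.54, 0.885 and 1.25 CPM in Isl1_hypo. The adjusted p of Sln was 0.0597 to 0.0929 without CTRL replicate 1 or 3 or Isl1_hypo replicate 4, 0.102 with the replicate block, 0.407 with the globin covariate and 0.109 with the Y-linked covariate. The erythroid, epicardium and epithelium lists are thus higher where Bmp4, Smad6 and Msx2 are lower, and their part in these results was not tested beyond the globin values given above.

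**Figure D4:**
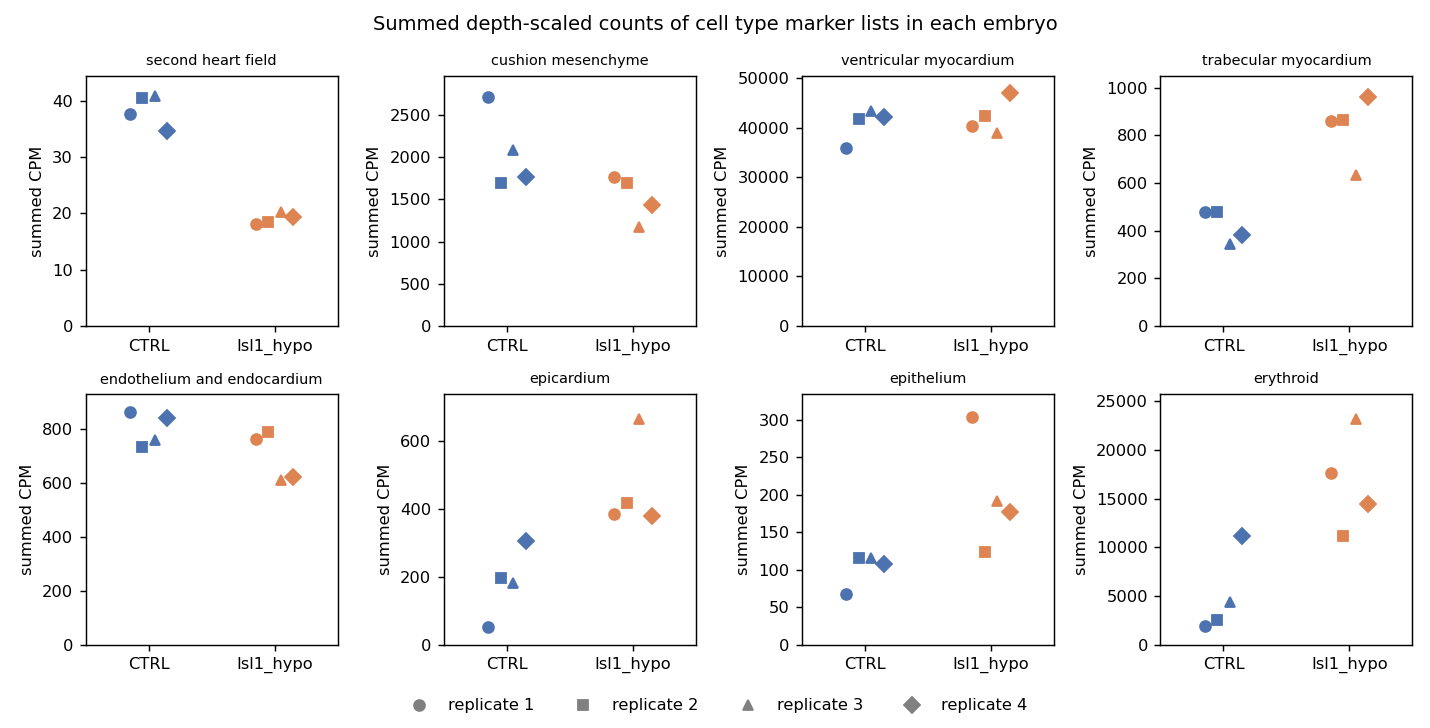
Summed CPM (vertical axis, from 0) of 8 cell type marker lists in each embryo, with CTRL in blue, Isl1_hypo in orange and marker shape giving the replicate. The second heart field list is 34.7 to 40.8 CPM in CTRL and 18.2 to 20.3 CPM in Isl1_hypo, while the ventricular myocardium list overlaps between the groups.

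The fold changes of Bmp4, Smad6 and Msx2 stayed negative under all alternatives run. Over these, Bmp4 ranged from −0.99 to −0.80 on the log2 scale, Smad6 from −0.61 to −0.41 and Msx2 from −1.96 to −1.04. The side of the adjusted threshold was less stable, as the plot of alternatives shows, with 3 of the 10 genes passing by DESeq2 (Bmp4, Smad6 and Msx2) and 2 by limma-voom (Bmp4 and Msx2), tools that called 319 and 134 of all genes where the edgeR fit called 37.

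**Figure D5:**
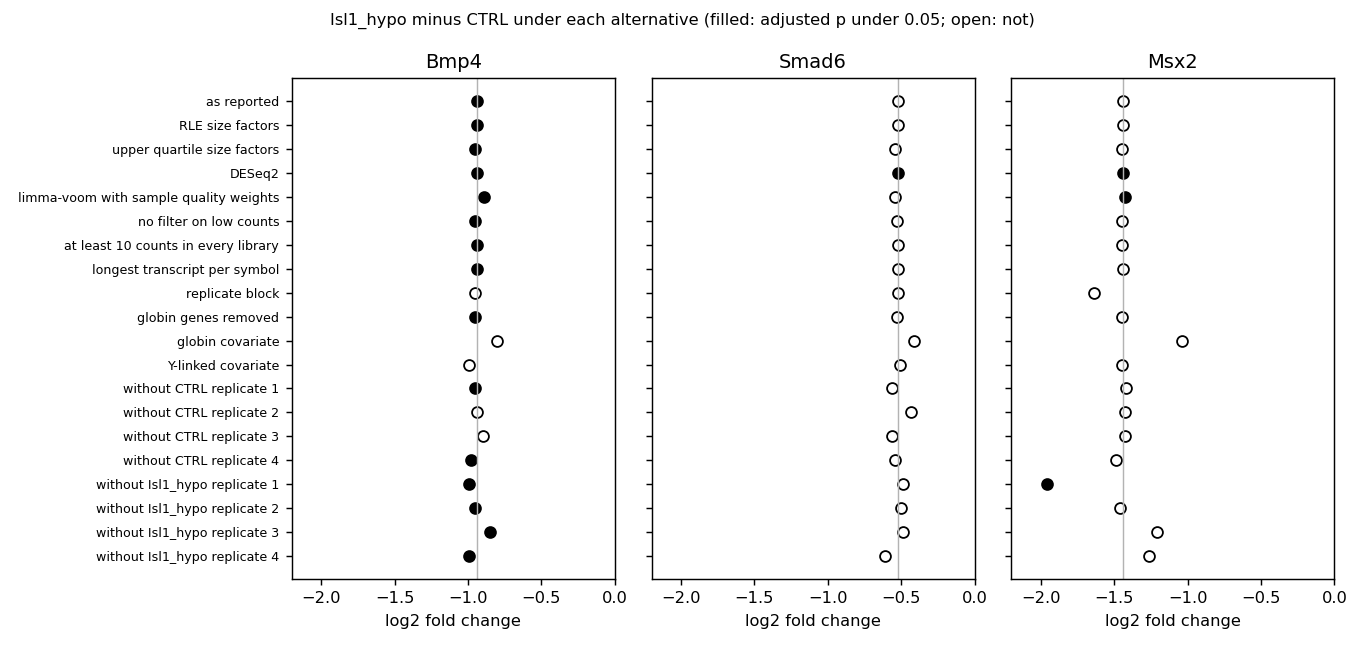
Log2 fold change (Isl1_hypo minus CTRL, horizontal axis) of Bmp4, Smad6 and Msx2 as reported and under 19 alternatives (vertical axis), with filled circles for an adjusted p under 0.05 and the grey line at the reported value. Bmp4 is open with the replicate block, with either covariate and without CTRL replicate 2 or 3, while Smad6 is filled with DESeq2, and Msx2 with DESeq2, with limma-voom and without Isl1_hypo replicate 1.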

How the data were processed

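Polyadenylated RNA of 8 OFT/RV libraries (4 CTRL, 4 Isl1_hypo, 1 embryo each) was sequenced on BGISEQ-500. The authors aligned reads to mm9 with STAR and counted exon reads per RefSeq transcript with HOMER, on both strands, and the deposited counts are not normalized. For the deposited RPKM the authors used edgeR, scaling over all transcripts. The authors' fold change and p-value columns from DESeq2 were not used. Counts of 1 transcript per symbol were tested with edgeR 4.0.16 in R 4.3.3 (TMM scaling, filterByExpr, quasi-likelihood test, Benjamini-Hochberg adjustment), which kept 13769 of 20701 symbols and was tested on simulated data. DESeq2 1.42.0 and limma 3.58.1 were alternatives. Libraries of a group came from separate embryos, and no pair agreed within counting noise (chi-square per degree of freedom at least 19.9). Genes named are Isl1, the 10 genes, up to 4 per pathway role by lowest p, the 5 nearest to Bmp4, and listed markers. The genes and lists were chosen with earlier results of these data known.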

Additional observations from a re-analysis of the deposited data

Results flagged for a closer look

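In 3 of 20 groups of 4 libraries (10 genes, 2 genotypes), 1 library lay farther from the others than Dixon's 95% limit for 4 samples allows, where chance flags about 1 group in 20, or 1 here. Smad6 was 5.33 log2 CPM in Isl1_hypo replicate 4, against 5.01 in each of the other 3 Isl1_hypo embryos, and it remained below the CTRL embryos. Msx2 was 5.21 log2 CPM in CTRL replicate 4, against 5.41 to 5.44 in the other CTRL embryos. Id1 was 5.96 log2 CPM in Isl1_hypo replicate 3, the library that stood apart on the first principal component, against 6.65 to 6.76 in the other Isl1_hypo embryos.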

How the results depend on the processing

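The 9 genes other than Bmp5 kept the sign of their fold change under all 19 alternatives. The globin covariate moved several of them toward 0, Bmp2 to −0.03, Bmp7 to −0.02, Msx1 to −0.23 and Id1 to −0.19, and limma-voom gave −0.19 for Bmp2 and −0.09 for Bmp7. Of the 10 genes, 3 passed by DESeq2 and 2 by limma-voom. None passed in the edgeR fits with the replicate block, the globin covariate or the Y-linked covariate, where 4, 2 and 3 had an unadjusted p under 0.05, against 1582, 526 and 892 of all 13769 genes. Leaving out 1 library gave 0 to 2. Bmp4 was at −0.95 (adjusted p 0.0763) with the replicate block, −0.80 (0.857) with the globin covariate and −0.99 (0.0754) with the Y-linked covariate, and at −0.99 to −0.85 (0.00342 to 0.0733) without single libraries. Smad6 passed with DESeq2 (−0.52). Msx2 passed with DESeq2 (−1.44) and limma-voom (−1.43), and was at −1.96 to −1.21 without single libraries. Bmp5, at 0.01 as reported, was −0.01 with upper quartile scaling, −0.02 with limma-voom, 0 with no filter, −0.08 with the Y-linked covariate, 0.16 with the globin covariate and −0.05 to 0.05 without single libraries.

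Over all genes the count of 37 was 319 with DESeq2, 134 with limma-voom, 3 with the Y-linked covariate, 0 with the replicate block or the globin covariate, and 4 to 48 without single libraries. The 2 called pathway genes became 1 with at least 10 counts in every library, 0 with the replicate block, the globin covariate or the Y-linked covariate (10, 3 and 5 of 42 at an unadjusted p under 0.05, to be read against the same counts over all genes), and 0 to 2 without single libraries. The fits without a library test fewer embryos, and the cause of the other differences was not tested. The labels do not say whether shared replicate numbers pair the samples. Deviations of same-numbered libraries correlated at −0.0209 to 0.0219, and 1 of 4 pairs matched best with its own number. These values do not show pairing and cannot exclude it.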
